A study of Rattus norvegicus with 36 samples.

Results

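The genes described here encode the proteins of the cytosolic ribosome in rat mammary cancers and in normal rat mammary tissue. They were taken as every probe set, the group of short probes that measures 1 transcript on the array, whose single annotated symbol starts with Rpl or Rps and a number, or is Rplp0, Rplp1, Rplp2 or Rpsa. Kinases of the Rps6k family and the 2 probe sets with pseudogene names, Rpl37-ps2 and Rps4x-ps1, were left out. The rule used the names and no measured value, but it was set with earlier results of these data known. It gave 55 probe sets for 48 genes, out of 31099 probe sets on the array, of which 20832 carry 1 gene symbol. After a filter on dim probe sets, 44 of the 48 genes were tested, 29 of the large and 15 of the small subunit, among 11773 genes in all. Rpl28, Rpl30, Rpl3l and Rpl39l1 were too dim to be tested. A further 36 probe sets that the annotation assigns to several symbols, a ribosomal protein among them, were not counted as members.

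The study measured gene expression in 33 mammary cancers and 3 normal mammary tissues of female Sprague-Dawley rats, 1 array each. Among the cancers, 5 with an H-ras mutation and 4 without arose after 1 Gy of whole-body gamma rays followed by N-methyl-N-nitrosourea (MNU), 5 with the mutation and 4 without after MNU alone, 4 without the mutation after gamma rays followed by 2-amino-1-methyl-6-phenylimidazo[4,5-b]pyridine (PhIP), 1 with the mutation and 3 without after PhIP alone, 4 after gamma rays alone, and 3 were spontaneous cancers of untreated rats. The 3 normal tissues came from untreated rats. MNU, an alkylating carcinogen, was injected into the peritoneum at 40 mg per kg, and PhIP, a heterocyclic amine of cooked meat, was given by gavage at 40 mg per kg and day. Treatment was given at 7 weeks of age, with the chemical 3 days after any irradiation, and every group received a high-fat diet with 23.5% corn oil from 9 weeks. Whether any rat gave more than 1 cancer is not stated, so the p-values measure the spread between these samples. The cancers are pieces of whole tissue, and the mutation status is that given by the labels. The titles of the spontaneous cancers and those after gamma rays alone name no H-ras status. Both groups are counted below among the nonmutated ones.

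The ribosome is built in the nucleolus from ribosomal RNA and about equal amounts of each ribosomal protein. Many messages of ribosomal proteins and translation factors start with an uninterrupted run of pyrimidines, the 5′ terminal oligopyrimidine (TOP) tract, through which mTOR signalling controls their translation. The MYC transcription factors raise the transcription of ribosomal RNA and of the genes for ribosome assembly, and some ribosomal proteins also act outside the ribosome, such as Rpl5 and Rpl11, which bind the p53 regulator MDM2.

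The starts of 10 of these genes are shown first, because the pyrimidine run at the start is what sets the family apart as a translational group. RefSeq promoters of the GRCr8 assembly, each reaching from 250 bases before to 50 bases after the annotated start, were matched by symbol for 43 of the 48 genes. Each line gives the 70 bases from 40 before to 30 after the start, 5′ to 3′ on the strand of the gene. Capitals mark the longest run of at least 8 C or T that lies between 20 bases before and 30 bases after the start, and a line with no capitals has no such run. Rpl35a, Rps15 and Rps28 are members that were lower in cancers, Rpl39 and Rps23 have long runs, and Rps4y2 is the member with the largest difference. Rps6 and Rpl12 are abundant members without a run counted by this rule, and Rps27l and Rpl7l1 are relatives of ribosomal protein genes.
Rpl35a (chr11:81234992-81235061, minus strand): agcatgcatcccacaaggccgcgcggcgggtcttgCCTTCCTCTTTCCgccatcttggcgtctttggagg
Rps15 (chr7:10068086-10068155, minus strand): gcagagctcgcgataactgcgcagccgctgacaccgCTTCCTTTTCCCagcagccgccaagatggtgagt
Rps28 (chr7:15311304-15311373, minus strand): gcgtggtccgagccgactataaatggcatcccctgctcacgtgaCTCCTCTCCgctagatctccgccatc
Rpl39 (chrX:121195867-121195936, minus strand): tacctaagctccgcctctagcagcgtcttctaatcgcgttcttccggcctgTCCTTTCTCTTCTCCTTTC
Rps23 (chr2:23814477-23814546, plus strand): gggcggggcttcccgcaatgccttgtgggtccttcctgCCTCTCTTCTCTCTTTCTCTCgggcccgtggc
Rps4y2 (chr4:183000873-183000942, plus strand): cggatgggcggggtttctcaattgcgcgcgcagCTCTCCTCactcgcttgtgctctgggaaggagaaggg
Rps6 (chr5:106420511-106420580, minus strand): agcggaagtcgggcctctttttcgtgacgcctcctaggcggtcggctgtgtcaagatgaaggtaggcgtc
Rpl12 (chr3:36661900-36661969, plus strand): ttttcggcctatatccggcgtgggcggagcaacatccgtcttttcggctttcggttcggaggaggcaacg
Rps27l (chr8:76443618-76443687, plus strand): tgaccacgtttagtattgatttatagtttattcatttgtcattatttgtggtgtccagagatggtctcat
Rpl7l1 (chr9:21695678-21695747, plus strand): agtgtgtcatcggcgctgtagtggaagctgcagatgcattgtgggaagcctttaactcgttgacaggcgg

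A pyrimidine run of 8 bases or more near the start was present in 30 of the 43 matched members (69.8%), against 19.1% of all 33469 promoters in the same table. Its length was 13 bases in Rpl35a, 12 in Rps15, 9 in Rps28, 8 in Rps4y2 and 21 in Rps23. Runs were counted only inside that stretch, so one that crosses its edge is longer than the part counted, and the 19 bases of Rpl39 are those inside it. A run that mostly lies outside it goes uncounted, such as one in Rps6 that starts before the stretch. The letters CCGGAAG, the core of the sites bound by ETS-family factors, occurred on either strand anywhere in the 300 bases of 10 members (23.3%), against 8.75% of all promoters. CTTTCC occurred in 19 members (44.2%) against 26.4%, and AAGATGGC in 4 (9.3%) against 3.17%. TATAAA, the TATA box letters, occurred in 6 members (14%), close to the 14.2% of all promoters. These are matches of letters in the annotated window, and a start annotated some bases away would move a run out of it.

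Most members gave some of the brightest signals on the array. Of the 44 tested genes, 38 were above 6000 intensity units on every array, while Rps4y2, Rpl26l1, Rps13, Rps27l, Rpl7l1 and Rpl39 were below 3000 on every array. Every deposited array had nearly the same trimmed mean, and the values were compared as log2 of the intensity plus 42.8, the 20th percentile of all values. Because the bright members lie near the top of the range, the level exceeded by 0.1% of the probe sets of an array, here called its signal ceiling, was followed beside them. Computed without ribosomal probe sets it lay between 13.23 and 13.75 (log2) in the cancers and between 13.58 and 14.23 in the normal tissues, and normal tissue 3 had the highest value of all arrays. The ratio of the 3′ to the 5′ hexokinase probe set, a sign of RNA integrity, was 12.3 in cancer 4 of the MNU nonmutated group and between 1.66 and 4.66 on the other arrays. Because of its high signal ceiling, results for the members are also given without normal tissue 3, whose hexokinase ratio was 2.39. Without the MNU nonmutated cancer, 14 members were lower in cancers, beside the 11 described next.

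The first comparison set the 33 cancers of all groups against normal mammary tissue. Of the 44 tested members, 11 were lower in cancers and none was higher by limma with Benjamini-Hochberg adjustment over all genes at a threshold of 0.05. Over all 11773 genes, 16.3% were lower and 18% higher. The median difference of the members was −0.19 on the log2 scale, against 0.02 for all tested genes, with 37 members negative and 7 positive. The 29 large-subunit genes had a median of −0.16 with 5 lower, and the 15 small-subunit genes a median of −0.25 with 6 lower. At an unadjusted p under 0.05, 20 members (45.5%) were lower, against 20.6% of all genes. The bright members moved together from array to array, so such counts are not of independent observations. In such whole-tissue samples, fewer cells of a type and less RNA per cell cannot be told apart.

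The count of lower members rested on single normal tissues. Without normal tissue 3, 1 member remained lower, Rps4y2, the median was −0.05, and the signs were 33 negative and 11 positive, with 2 members at an unadjusted p under 0.05, while 11.3% of all genes were still lower and 12% higher. Without normal tissue 1, 25 members were lower and the median was −0.33. Leaving out any of the other 34 arrays gave between 8 and 15 lower members. After quantile normalization, which gives all arrays the same distribution, 7 members were higher, namely Rpl4, Rpl24, Rpl22, Rpl13a, Rpl37a, Rpl27 and Rpl12 with differences of 0.14 to 0.29 and named after their values were seen, 1 was lower, Rps4y2, and the median was 0.07. Under quantile normalization 17.2% of all genes were lower and 16.6% higher. It sets each rank to the same value on all arrays, so it removes much of any shift shared by genes in the top ranks. Apart from Rps4y2, the calls of lower members therefore depended on normal tissue 3, and the sign of the members' median turned after quantile normalization.

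**Figure D1:**
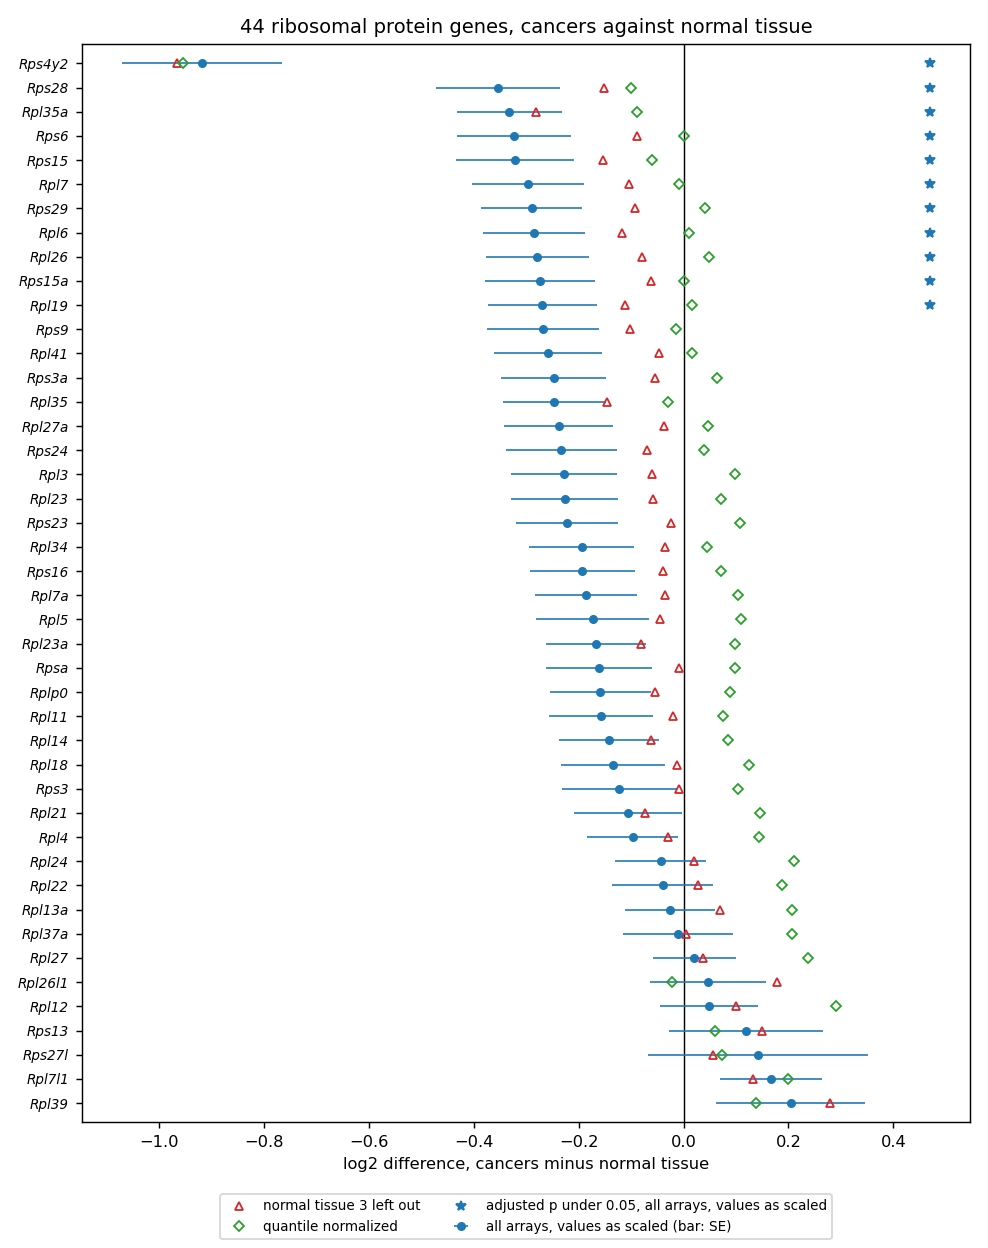
Log2 difference of the 33 cancers minus the 3 normal tissues for the 44 tested ribosomal protein genes, with bars of 1 standard error; stars mark an adjusted p under 0.05, triangles the difference without normal tissue 3 and diamonds the difference after quantile normalization. Rps4y2 lies at −0.92 under the main setting, while most other members lie below 0 as scaled and near or above 0 after quantile normalization.

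Rps4y2, named as a relative of the small-subunit protein S4, had the largest difference of all members. Its intensity was 47.6 at the lowest, 94.9 at the median and 195 at the highest in the 33 cancers, against 247, 205 and 200 in the 3 normal tissues. All 33 cancers lay below every normal tissue, with the highest cancer at 195 and the lowest normal tissue at 200. Lower members were named for large differences in this same comparison, which favours separated groups, so the separation adds no support. The share of all genes that separate so is not given, here or for the other genes set against normal tissue. On the log2 scale it averaged 7.10 ± 0.31 in cancers (SD, n = 33) and 8.02 ± 0.14 in normal tissues (SD, n = 3), a difference of −0.92 ± 0.15 (SE) with an adjusted p of 3.4e-05 by limma. The probe set was dim, and it passed the intensity limit of 125.8 on only 8 arrays, the 3 normal tissues and 5 cancers. The difference stayed between −0.84 and −0.97 when each array was left out in turn, and it was −0.95 after quantile normalization. Group medians ran between 76.3 units in the radiation plus MNU mutated cancers and 140 units in the single PhIP mutated cancer, with the spontaneous cancers at 116 units.

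The cell content of the samples also differed between cancers and normal tissue. The counts of markers stand beside 18% of all genes higher and 16.3% lower. Of 12 adipocyte markers, 11 were lower in cancers and none higher, and their mean log2 level lay between 7.25 and 8.61 in cancers and between 11.09 and 11.70 in normal tissues. All 8 endothelial markers and 5 of 12 macrophage markers were lower, while 8 of 13 luminal epithelial markers were higher and 1 lower, with a mean level of 10.99 to 11.82 in cancers and 10.83 to 11.36 in normal tissues. Of 19 cell-cycle genes, 10 were higher and none lower. The part of cell content in the differences of Rps4y2 and the other members was not tested.

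Rpl35a, a large-subunit protein whose human gene is mutated in Diamond-Blackfan anaemia, separated the groups next best. Its intensity was 8486 at the lowest, 11692 at the median and 13583 at the highest in cancers, against 13246, 14047 and 15131 in normal tissues. The cancers were below every normal tissue in 32 of 33 cases. The mean log2 level was 13.46 ± 0.19 in cancers (SD, n = 33) and 13.79 ± 0.10 in normal tissues (SD, n = 3), a difference of −0.33 ± 0.10 (SE) with an adjusted p of 0.0119 by limma.

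Rps28, a small-subunit protein and another human Diamond-Blackfan gene, had intensities of 7624 at the lowest, 10809 at the median and 13889 at the highest in cancers, against 10969, 12410 and 17826 in normal tissues. It was below every normal tissue in 22 of 33 cancers. The difference was −0.35 ± 0.12 (SE), with an adjusted p of 0.0211 by limma. Rps29, also such a gene, had intensities of 11337, 14603 and 16675 at the same points in cancers, against 14685, 15551 and 22758 in normal tissues. The ranges overlapped, with 18 of 33 cancers below all normal tissues. Its difference was −0.29 ± 0.10, with an adjusted p of 0.0207. Rps6, the small-subunit protein phosphorylated by S6 kinases, had intensities of 9893, 12911 and 15149 in cancers, against 12523, 14334 and 21847 in normal tissues. For Rps28, Rps29 and Rps6 the highest value of all 36 arrays was that of normal tissue 3, and 11 of 33 cancers lay below all normal tissues for Rps6. Its difference was −0.32 ± 0.11 with an adjusted p of 0.0225.

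The other 6 lower members were Rps15 (−0.32), Rpl7 (−0.30), Rpl6 (−0.29), Rpl26 (−0.28), Rps15a (−0.27) and Rpl19 (−0.27), the last of which was named after its values were seen. Their adjusted p by limma ranged from 0.0239 to 0.0451, and between 11 and 16 of 33 cancers lay below every normal tissue. All were lost without normal tissue 3. Rps15 and Rpl7 were also lost without normal tissue 2, with adjusted p of 0.0789 and 0.0528. Rps15a was also lost when spontaneous cancer 1 or 3 or MNU mutated cancer 2 or 5 was left out. Rpl19 was lost without each of these, without MNU mutated cancer 1 or 4, without radiation plus MNU mutated cancer 4 and without normal tissue 2, with adjusted p of 0.0504 to 0.104. Just past the threshold, Rpl35 had an adjusted p of 0.0513 and was not called.

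By role, 4 of the 10 tested members whose human genes are linked to Diamond-Blackfan anaemia were lower and none was higher, namely Rpl35a, Rps29, Rps28 and Rpl26. Of all 44 members 11 (25%) were lower, and of all genes 16.3%. The bright members moved together, so these 10 are not independent observations, and no trait particular to this role is read from the count. None of these 4 was lower by the test without normal tissue 3 or after quantile normalization. Of the 4 members that bind MDM2 with or beside the 5S ribosomal RNA, none passed the test. Among them Rpl5 differed by −0.17, Rpl11 by −0.16 and Rpl23 by −0.23, with adjusted p of 0.222, 0.227 and 0.084 by limma. Rplp0, the base of the stalk that recruits elongation factors, differed by −0.16 with an adjusted p of 0.204. Rplp0 and Rpl23 were lower by the test without normal tissue 1.

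The genes closely related to a standard ribosomal protein gene behaved apart from the bright members in level. Rps27l, which p53 induces in human cells, had intensities of 255 at the lowest, 483 at the median and 951 at the highest in cancers and a difference of 0.14 ± 0.21. Rpl7l1, a relative of Rpl7, had intensities of 1611, 2420 and 2877 in cancers, and its difference was 0.17 ± 0.10. Rpl26l1, a relative of Rpl26, differed by 0.05 ± 0.11. None of these 3 passed the test, with adjusted p of 0.63, 0.186 and 0.77 by limma, and Rps4y2 was the only one of 4 such genes that did. Rpl39 and Rps13, the other dim members, differed by 0.20 and 0.12 and did not pass. Of the members too dim to be tested, Rpl28 had median intensities of 89.2 in cancers and 69.6 in normal tissues, Rpl30 of 66.6 and 64.8, Rpl3l of 22.3 and 8.81, and Rpl39l1 of 10.7 and 33.5, in the same order of groups. The ranges of cancers and normal tissues overlapped for all 4.

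For 6 genes, several probe sets were present, and they did not always move alike. Rps24, a small-subunit protein, had a brighter probe set with a difference of −0.23 ± 0.11, not past the test in a fit of every probe set. Its dimmer probe set had intensities of 658 at the lowest, 1323 at the median and 2358 at the highest in cancers, against 922, 548 and 788 in normal tissues. Here 31 of 33 cancers lay above every normal tissue, the opposite side from the brighter one. The difference was 0.82 ± 0.20 (SE), with an adjusted p of 0.00243 by limma in that fit. The second probe set of Rpl7l1 was higher by 0.26 ± 0.10, with an adjusted p of 0.0453. Rpsa also differed in sign, by −0.16 for the probe set of the main fit and by 0.09 and 0.01 for its others. None of these passed the test. With the probe sets of a gene averaged, Rpl7 differed by −0.24 and had an adjusted p of 0.314, and Rpl7l1 was higher by 0.21 with an adjusted p of 0.0494. Which transcripts the probe sets of 1 gene measure was not tested. Among the 36 probe sets annotated with several symbols, 9 were lower and 1 higher in cancers, with a median of −0.14. Many ribosomal protein genes have near-identical processed pseudogenes, so a probe set can also read such copies.

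**Figure D2:**
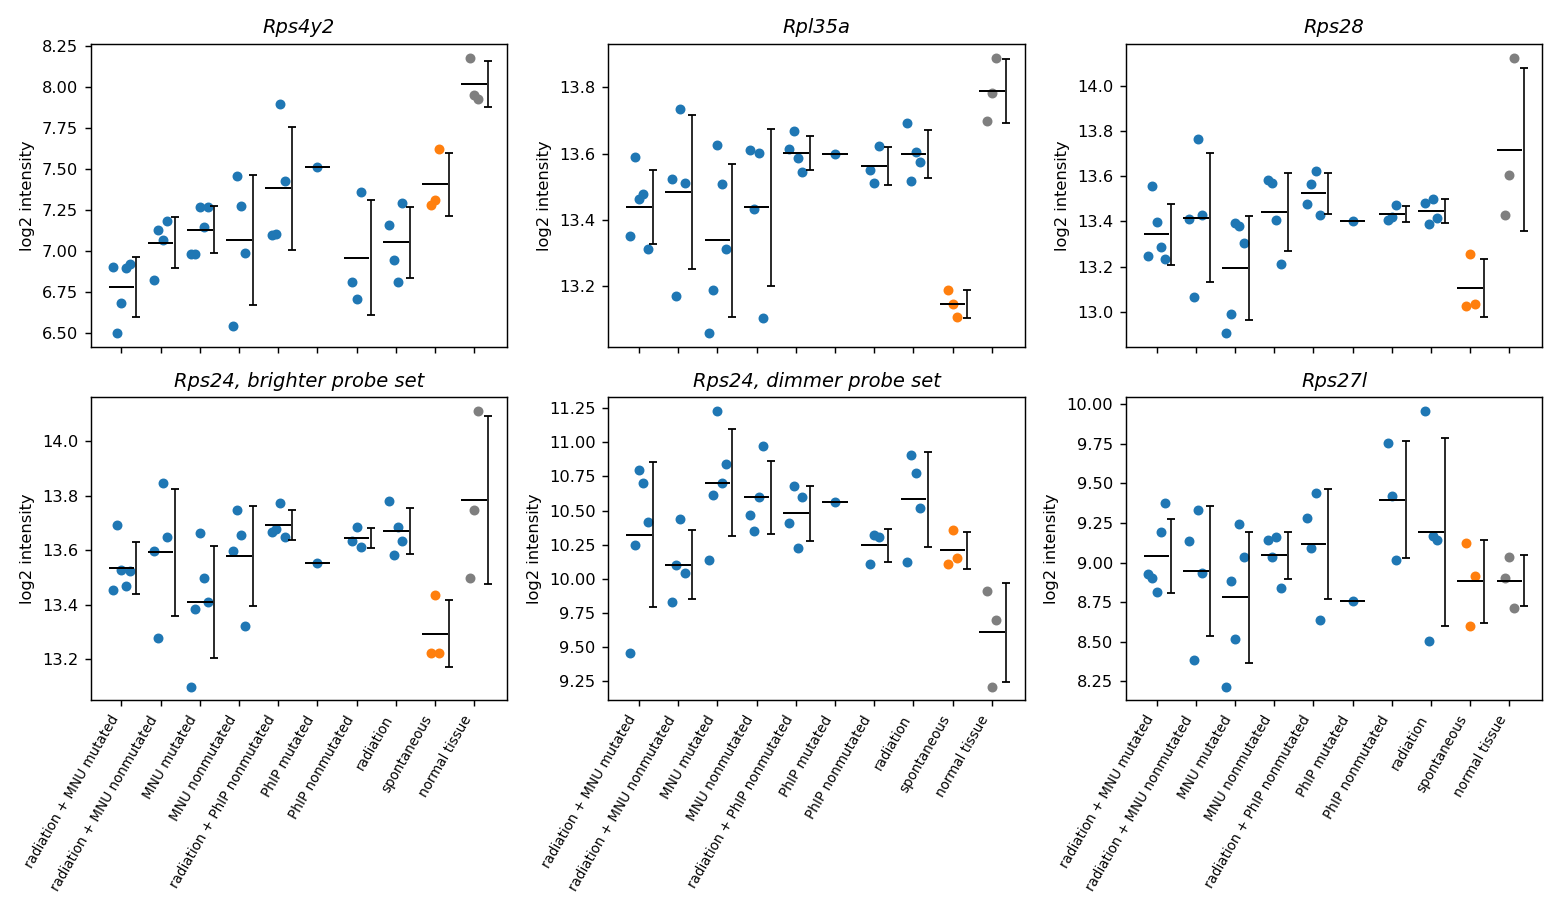
Log2 intensity by group for Rps4y2, Rpl35a, Rps28, both probe sets of Rps24 and Rps27l; points are arrays, lines are means and bars are 1 SD. All cancers lie below the normal tissues for Rps4y2, while 31 of 33 lie above them for the dimmer Rps24 probe set. The share of all genes that separate so is not given.

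The bright members moved together from array to array. The median over the 44 members was 13.45 ± 0.16 (SD, n = 33) in cancers, with a range of 13.10 to 13.73, against 13.39, 13.62 and 13.89 in the 3 normal tissues. It followed the signal ceiling computed without ribosomal probe sets, with a Pearson correlation of 0.90 and a Spearman correlation of 0.86 over 36 arrays, and 0.93 and 0.88 over the 33 cancers. Both measures come from the same array and share its scaling, so these correlations are descriptions. Over the 703 pairs of the 38 bright members the Pearson correlation across the 33 cancers lay between 0.64 and 0.98, with a median of 0.91. After quantile normalization the same pairs had a median of 0.21, and 111 of the 703 exceeded 0.5. The SD of the members' median over the cancers was then 0.039, against 0.16 as scaled. Both drops were in large part fixed by the method, which gives the top ranks the same values on all arrays.

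**Figure D3:**
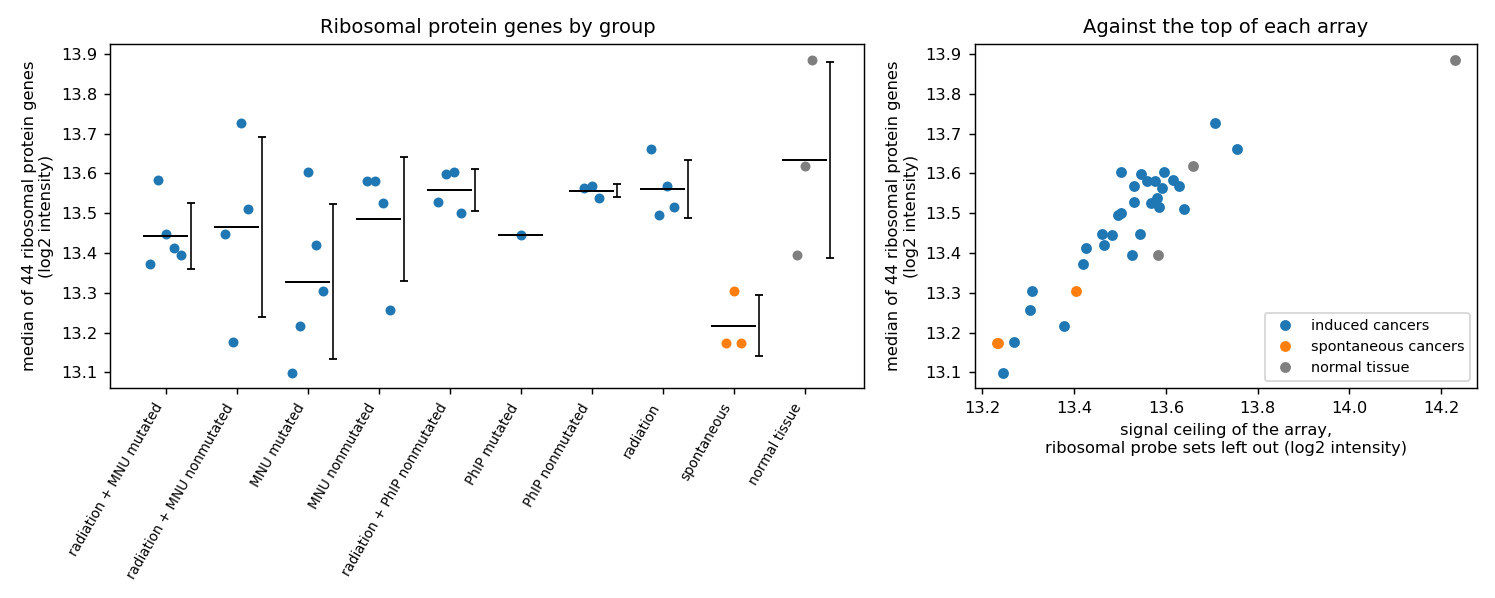
Median log2 level of the 44 tested ribosomal protein genes on each array by group (left; points are arrays, lines are means, bars are 1 SD), and the same median against the signal ceiling of each array, the level exceeded by 0.1% of its probe sets, ribosomal ones left out (right). The 33 cancers lie between 13.10 and 13.73, the normal tissues at 13.39, 13.62 and 13.89, and the median follows the ceiling across the 36 arrays.

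The dim members did not follow the bright ones to the same extent. The correlation with the median of the bright members over the 33 cancers was 0.58 for Rpl7l1 and 0.54 for Rps27l, and it was 0.25 for Rps13, 0.09 for Rpl39, 0.03 for Rpl26l1 and −0.12 for Rps4y2. Pairs of a bright and a dim member had a median correlation of 0.18, and pairs of dim members one of −0.03. The SD over cancers was 0.14 to 0.20 for the bright members, against 0.37 for Rps27l, 0.31 for Rps4y2, 0.25 for Rpl39 and 0.24 for Rps13. For the other dim members, Rpl26l1 and Rpl7l1, it was 0.17, within the range of the bright ones. The first 4 are dim, and the part of measurement noise in their spread was not tested.

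Genes that build and use the ribosome were followed from fixed lists, also set with earlier results of these data known. Up to 4 genes of each list were named for the smallest adjusted p by limma in this same comparison. That choice favours separated groups, so their separation from the normal tissues adds no support. Of 108 tested ribosome biogenesis genes, 35 were higher (32.4%, against 18% of all genes) and 4 lower in cancers, with a median difference of 0.24. Nsa2, a factor of large-subunit assembly, had intensities of 2470 at the lowest, 4464 at the median and 5883 at the highest in cancers, against 2735, 2134 and 2496 in normal tissues. It was above every normal tissue in 32 of 33 cancers, with a difference of 0.84 ± 0.13. Nolc1, a nucleolar phosphoprotein, differed by 0.59 ± 0.10, Exosc8, a subunit of the RNA exosome, by 0.57 ± 0.11 and Wdr75, a small-subunit assembly factor, by 0.51 ± 0.11, and for each of these 3 all 33 cancers lay above every normal tissue. The 4 lower genes, named after their values were seen, were Sbds (−0.55), Nmd3 (−0.44), Riok3 (−0.27) and Dcaf13 (−0.24). The count of higher genes was 14 without normal tissue 2, 21 without normal tissue 1 and 25 without normal tissue 3, and it was 24 after quantile normalization, with 9 lower. The count of lower genes was 1 without normal tissue 2 and 2 without normal tissue 3. The mean log2 level of the list was 9.72 ± 0.12 in cancers (SD, n = 33) and 9.53 ± 0.06 in normal tissues (SD, n = 3).

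Of 14 genes of RNA polymerase I and its factors, Ttf1 (0.39), Taf1d (0.80) and Polr1f (0.73) were higher and none was lower. The higher share was 21.4%, near the 18% of all genes. No gene of the list passed without normal tissue 1, 1 was higher without normal tissue 3 and 5 without MNU nonmutated cancer 4. Of 16 other genes with TOP messages, 3 were higher (18.8%, against 18% of all genes) and 1 lower, where 16.3% of all genes were lower. Hnrnpa1, an RNA-binding protein of splicing, was higher by 0.84 ± 0.13 with all 33 cancers above every normal tissue. Nap1l1, a histone chaperone, was higher by 0.33 and Eif4b, an initiation factor, by 0.32. Eef1a1, the elongation factor that brings aminoacyl-tRNA to the ribosome, was lower by the test, with a difference of −0.32. Eif4b did not pass when any 1 of the normal tissues was left out. Without normal tissue 3 this list had 1 higher and 0 lower genes, without MNU mutated cancer 3 it had 2 lower, and after quantile normalization 9 higher and 0 lower.

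Among 25 initiation factors, Eif2b2 (0.36) and Eif5a2 (0.38) were higher and Eif4g2 (−0.39) was lower, the last below every normal tissue in all 33 cancers. The higher share was 8%, against 18% of all genes, and 16.3% of all genes were lower. Without normal tissue 3 neither Eif2b2 nor Eif5a2 passed, Eif2b2 was also lost without normal tissue 1 and Eif5a2 without normal tissue 2, and after quantile normalization Eif4g2 differed by −0.13 with an adjusted p of 0.0817 by limma. The count of lower factors was 2 without normal tissue 1, MNU mutated cancer 1 or radiation plus MNU nonmutated cancer 3. Of 23 genes of the MYC and mTOR pathways, 1 was higher (4.35%, against 18% of all genes) and 5 were lower, where 16.3% of all genes were lower. Mycn, a MYC-family transcription factor, had intensities of 116 at the lowest, 449 at the median and 1277 at the highest in cancers, against 53.5, 54.0 and 107.6 in normal tissues. All 33 cancers lay above the normal tissues. The 3 normal values lie under the filter limit of 125.8, which Mycn passed only through the cancers, so neither its separation nor its call adds support. At such low values the fitted difference of 2.08 ± 0.36 depends on the added constant. It ran from 1.53 to 2.40 with a larger or a smaller one. Pdcd4, an inhibitor of the helicase eIF4A, was lower by the test with a difference of −0.82 ± 0.13, and all 33 cancers lay below the normal tissues. Eif4ebp1, the eIF4E-binding protein that mTOR phosphorylates, differed by −0.77, and Deptor, an inhibitor of mTOR, by −0.75. Mlx (−0.47) and Rheb (−0.23), the activator of mTOR complex 1, were named after their values were seen. Without normal tissue 3, 2 genes of this list were lower, and 3 without normal tissue 2. Deptor was lost in both cases, and 1 gene was lower with the signal ceiling as a covariate. The count of higher genes was 2 without normal tissue 2, radiation cancer 1 or radiation plus MNU mutated cancer 5.

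The mitochondrial ribosomal proteins, which belong to a separate ribosome, had 2 higher and 4 lower genes among 73. The higher share was 2.74%, against 18% of all genes, and 16.3% of all genes were lower. Mrps6 was lower by the test with a difference of −1.10 ± 0.18, below every normal tissue in all 33 cancers. Mrpl37 (−0.41), Mrpl33 (−0.34) and Mrpl41 (−0.33) were also lower. Without normal tissue 2, Mrpl33 and Mrpl41 were lost, with adjusted p of 0.107 and 0.0623 by limma, and Mrpl33 was lost without normal tissue 3, with 0.0699. Mrps18b (0.39) and Mrpl30 (0.25), named after their values were seen, were higher, and 1 gene of the list was higher without normal tissue 2 or 3. The count of higher genes was 4 without MNU nonmutated cancer 4 or without cancer 2 of either radiation plus MNU group.

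**Figure D4:**
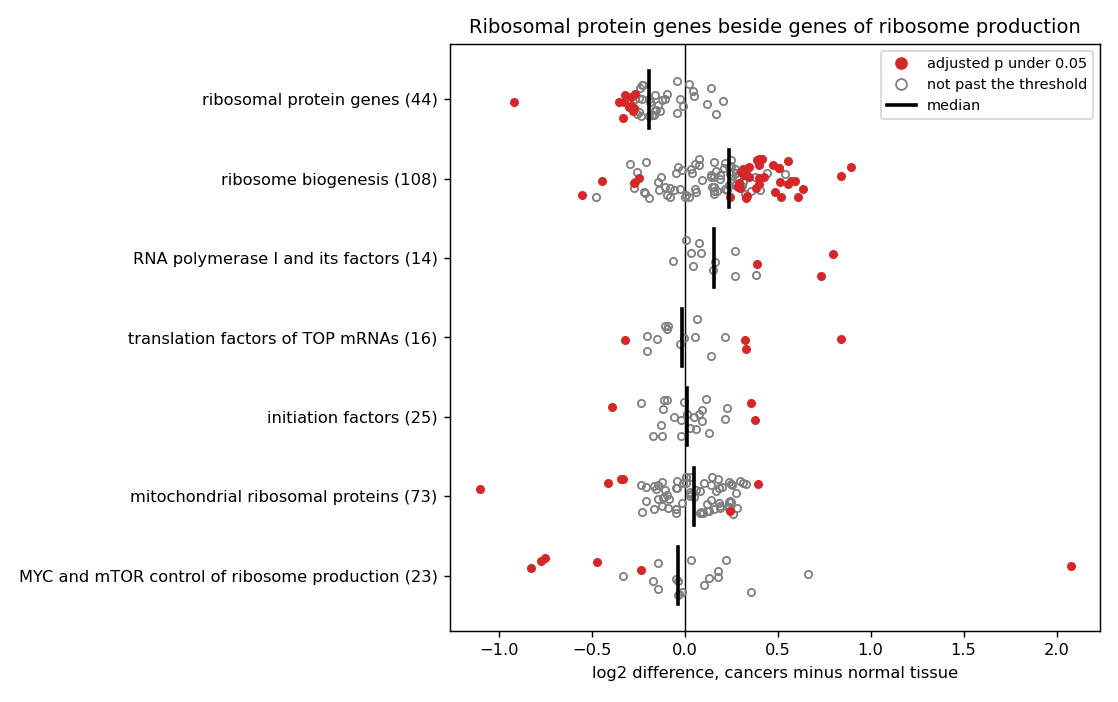
Log2 difference of cancers minus normal tissues for each tested gene of the ribosomal protein family and of the related lists, with the median of each list; red points have an adjusted p under 0.05. The ribosomal protein genes have a median of −0.19 and the ribosome biogenesis genes one of 0.24.

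The second question of the design was how the H-ras mutated cancers compare with the nonmutated ones. The difference was averaged over the MNU and the radiation plus MNU cancers, since only 1 PhIP cancer carried the mutation. No gene passed limma with adjustment over 11773 genes, and 886 (7.53%) had an unadjusted p under 0.05. Of the 44 members, 1 (2.27%) did, Rpl26l1. It averaged 8.20 ± 0.13 in mutated cancers (SD, n = 10) and 8.01 ± 0.20 in nonmutated ones (SD, n = 8), a difference of 0.18 ± 0.09 (SE) with an adjusted p of 0.623. The unadjusted count was 0 without MNU mutated cancer 5 and 9 without radiation plus MNU nonmutated cancer 2, and 11 of the 36 arrays moved it by over 1.5 times when left out. Rpl13a averaged 13.39 in mutated and 13.52 in nonmutated cancers, and Rps28 averaged 13.27 and 13.43 in the same order. The median over the members was −0.09 as scaled and −0.00 after quantile normalization. At an unadjusted p under 0.05, 1 member had a difference that depended on radiation, Rpl7l1, against 3.32% of all genes. That count ran from 0 to 2 with 1 array left out, and 8 of the 36 arrays moved it by over 1.5 times. No member passed the adjusted test of whether the H-ras difference depended on radiation, and the fitted interactions of Rpl7l1, Rpsa and Rps4y2 were 0.34 ± 0.15, 0.24 ± 0.16 and −0.34 ± 0.24 (SE).

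The third comparison set cancers after radiation against cancers without it, with the 4 backgrounds of no chemical, MNU with and without mutation, and PhIP without mutation held apart. No gene passed the adjusted test. At an unadjusted p under 0.05, 19 of the 44 members (43.2%) were higher after radiation and none lower, against 3.99% of all genes that were higher and 9.9% that differed either way, and the members' median was 0.12. Rpl35a averaged 13.53 ± 0.14 after radiation (SD, n = 17) and 13.37 ± 0.22 without (SD, n = 15), with a difference of 0.16 ± 0.06 (SE) and an adjusted p of 0.412 by limma. Rps3a and Rpl34 each differed by 0.15. Because the bright members moved together, the members counted here are not independent observations. The unadjusted count was 3 without radiation plus MNU nonmutated cancer 3 and 35 without radiation plus MNU nonmutated cancer 2, and 19 of the 36 arrays moved it by over 1.5 times when left out. After quantile normalization no member had an unadjusted p under 0.05, and the median was 0.01.

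The 6 groups of cancers counted as H-ras nonmutated, the 3 spontaneous cancers and those after radiation alone included, were compared in 1 test. No member passed after adjustment, and 0.00849% of all genes did. At an unadjusted p under 0.05 there were 9 members (20.5%), which are not independent observations, against 8.85% of all genes, and none after quantile normalization. That count was 1 without spontaneous cancer 1 or 3, 16 without MNU nonmutated cancer 4 or radiation plus MNU nonmutated cancer 3, 17 without radiation plus MNU nonmutated cancer 2 and 18 without normal tissue 3, which enters only through the shared estimate of the spread. The smallest adjusted p of the members by limma was 0.393, for Rpl12, followed by Rpl35a with 0.450 and Rpl13a with 0.487.

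Each of the 5 induced nonmutated groups was also set against the 3 spontaneous cancers, which all 5 comparisons share. No member passed the adjusted test in any of them, where the share of all genes that did was at most 0.068% lower and 0.00849% higher, in the radiation plus MNU nonmutated cancers. The lower share was 0.0255% for radiation and for radiation plus PhIP, 0.0425% for MNU and 0.00849% for PhIP. Rpl12, which lies near the base of the stalk, had the smallest p of the members for radiation. Its intensity was 11850, 11319, 11983 and 11258 in the radiation cancers, against 7772, 8951 and 8407 in the spontaneous ones. All 4 radiation cancers lay above the spontaneous cancers. The log2 level averaged 13.51 ± 0.05 after radiation (SD, n = 4) and 13.04 ± 0.10 in spontaneous cancers (SD, n = 3), with a difference of 0.47 ± 0.12 (SE) and an adjusted p of 0.337 by limma. Rpl35a had intensities of 13196, 11692, 12420 and 12157 in the radiation cancers, against 9298, 9022 and 8776 in the spontaneous ones, a difference of 0.45. Again the groups did not overlap. Both genes were named for a small p in this same comparison, which favours separated groups, so the separation adds no support. The share of all genes that separate these groups was not counted. Rpl12 differed by 0.36 in MNU nonmutated cancers and by 0.43 in both PhIP nonmutated and radiation plus PhIP nonmutated cancers. Rpl35a differed by 0.41 in PhIP nonmutated cancers and by 0.46 in radiation plus PhIP nonmutated cancers. Of the members with the smallest p after MNU, Rpl13a differed by 0.33, and after radiation plus MNU, Rplp0 differed by 0.33. The smallest adjusted p of any member over the 5 comparisons was 0.223.

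The counts at an unadjusted p were mostly of higher members. The bright members moved together, with a median correlation of 0.91 between pairs across the cancers. The members counted are therefore not independent observations, and their shares cannot be read like shares of separate genes. Radiation cancers had 37 members higher at an unadjusted p under 0.05 (84.1%, against 2.28% of all genes) and a median of 0.34. MNU nonmutated cancers had 21 (47.7%, against 3.13%) and a median of 0.26, and PhIP nonmutated cancers had 34 (77.3%, against 2.09%) and a median of 0.33, with Rps4y2 the 1 member lower, as were 3.29% of all genes. Radiation plus MNU nonmutated cancers had 20 (45.5%, against 3.22%) and a median of 0.25, and radiation plus PhIP nonmutated cancers had 37 (84.1%, against 4.26%) and a median of 0.33. In every one of these comparisons Rps4y2 was the lowest member, and its differences were −0.35, −0.34, −0.45, −0.36 and −0.02 in the same order of groups. The members' median level had means of 13.47 to 13.56 in the 5 induced nonmutated groups, against 13.22 ± 0.08 in spontaneous cancers (SD, n = 3). The signal ceiling without ribosomal probe sets averaged 13.50 to 13.60 in the 5 induced groups, against 13.29 in spontaneous cancers.

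Muscle and cell-cycle genes were measured beside the members. The 7 skeletal muscle markers had median differences of −1.60 to −0.78, with 6 of 7 at an unadjusted p under 0.05 for radiation plus PhIP and 4 of 7 for radiation. Their mean log2 level was 10.15, 6.95 and 8.82 in the 3 spontaneous cancers, the first of which was the highest of all 36 arrays. The 19 cell-cycle genes had medians of −0.94 to −0.20, with 14 of 19 at an unadjusted p under 0.05 for radiation plus MNU and 10 of 19 for MNU. None of these genes passed the adjusted test, and the part of muscle content and cell cycling in the members' differences was not tested. With the signal ceiling without ribosomal probe sets as a covariate, the members' medians were 0.02 to 0.10 and between 0 and 5 members had an unadjusted p under 0.05. This ceiling followed the members' median with a Pearson correlation of 0.93 over the 33 cancers. The covariate thus removes much of what the members share, so these smaller values were in part fixed in advance. After quantile normalization the members' medians of the differences were 0.03, 0.04, 0.03, 0.01 and 0.07, and between 0 and 3 members had an unadjusted p under 0.05. That method removes much of any shift shared by genes in the top ranks, so the smaller values were in part fixed in advance. Counted in either direction, 5.08% of all genes differed for radiation, 8.35% for MNU, 5.38% for PhIP, 9.45% for radiation plus MNU and 10.3% for radiation plus PhIP. With 1 array left out, the members' counts of either direction ran from 25 to 38 for radiation and from 26 to 38 for radiation plus PhIP. The counts of the other 3 comparisons moved by over 1.5 times when certain arrays were left out. For MNU the count of 21 became 7 without spontaneous cancer 1 or 3, 9 or 10 without MNU nonmutated cancer 1, 2 or 3, and 36 without MNU nonmutated cancer 4. For PhIP the count of 35 became 19 without spontaneous cancer 1, 14 without spontaneous cancer 3 and 20 without PhIP nonmutated cancer 3. For radiation plus MNU the count of 20 became 4 without spontaneous cancer 1, 7 without spontaneous cancer 3, 12 without cancer 1 or 4 of that group, 2 without its cancer 3 and 37 without its cancer 2.

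**Figure D5:**
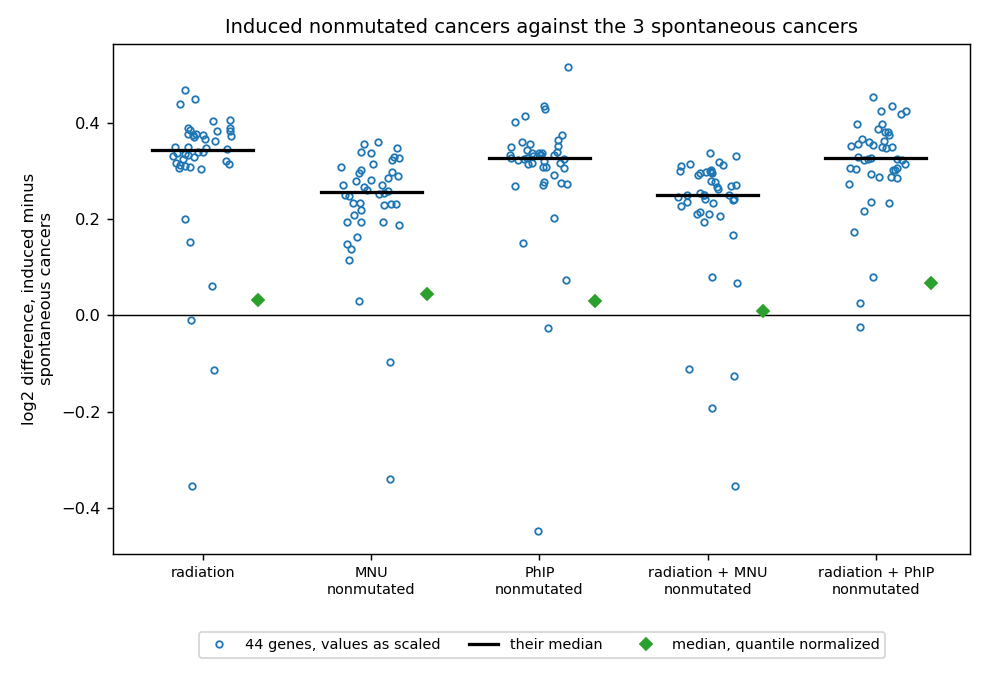
Log2 difference of each of the 5 induced nonmutated groups minus the 3 spontaneous cancers for the 44 ribosomal protein genes; black lines are medians and green diamonds the medians after quantile normalization. The medians lie between 0.25 and 0.34 as scaled and between 0.01 and 0.07 after quantile normalization.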

How the data were processed

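The values were intensities of 31099 probe sets on 36 arrays, 1 per sample, as deposited by the authors; no source used here gives the method that summarised the probes, and each array had a trimmed mean near 500. The number of arrays limits the precision. Members and gene lists were chosen with earlier results of these data known. Intensities plus 42.8 were taken as log2. A probe set was kept if above 125.8 (the 40th percentile overall) on 3 arrays or more, and the brightest probe set on average stood for a gene, which left 11773 genes. limma 3.58.1 in R 4.3.3 fitted 1 mean per group over all 36 arrays, and p-values were adjusted by Benjamini-Hochberg at 0.05. Named genes were the 3 members of smallest p per comparison and 10 by difference among those called in cancers, with role genes fixed in lists. The fit was tested on simulated data. Alternatives were quantile normalization, median centring, the signal ceiling as a covariate, a replicate block and leaving out each array. Replicate numbers did not pair the samples, and no batch was given. Promoters came from RefSeq.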

Additional observations from a re-analysis of the deposited data

Results flagged for a closer look

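In groups of 4 or 5 cancers, 7 values lay far from the others of their group, out of 120 tests of a gene in a group, where chance alone gives about 1 in 20. That count is close to this share. The values are given on the log2 scale. Of the 7, 4 came from 1 array and are not independent, that of cancer 4 of the MNU nonmutated group. Its Rpl11 level was 13.10, where the other 3 cancers lay between 13.54 and 13.60. Its Rps29 level was 13.55, against 13.88 to 13.93. Its Rpl5 level was 13.44, against 13.82 to 13.88. Its Rpl7 level was 13.25, against 13.66 to 13.68. The same array had the hexokinase ratio of 12.3, and the part of RNA quality in these values was not tested. Cancer 2 of the radiation plus MNU mutated group had an Rps15 level of 13.23, where the others lay between 12.92 and 12.98. Radiation cancer 1 had an Rps29 level of 13.97, where the others lay between 13.86 and 13.87. Cancer 4 of the radiation plus PhIP nonmutated group had an Rpl7l1 level of 11.19, where the others lay between 11.36 and 11.39.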

How the results depend on the processing

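The 11 members called between cancers and normal tissue became 8 after quantile normalization, 7 of them higher, and 21 with arrays centred on the median. They became 2, 1 higher and 1 lower, when the signal ceiling entered the fit. With the ceiling computed without ribosomal probe sets, an alternative chosen after seeing the data, they also became 2. The first ceiling counts ribosomal probe sets, so the members were adjusted in part for themselves. The second followed the members' median with a Pearson correlation of 0.90 over 36 arrays. Lost calls and turned signs under either were therefore in part fixed in advance. With 1 array left out the count ran from 1 to 25, and with the replicate number as a block it was 9. Of 122 pairs of arrays with the same number in different groups, the deviations from group means correlated by −0.50 to 0.39, with a median of −0.00, and 8 of 35 arrays correlated best with an array of their own number. Rps4y2 kept its direction and its call under every alternative run. After quantile normalization the difference turned to 0.000116 for Rps6, 0.0407 for Rps29, 0.0113 for Rpl6, 0.0487 for Rpl26, 0.000127 for Rps15a and 0.00312 for Eef1a1. With the ceiling as a covariate it turned to 0.0254 for Rps6, 0.0100 for Rps15, 0.0364 for Rpl7, 0.00361 for Rps29, 0.00909 for Rpl6, 0.0203 for Rpl26, 0.0441 for Rps15a and 0.0141 for Eef1a1. With the ceiling without ribosomal probe sets it turned to 0.0173 for Rps28, 0.0601 for Rps6, 0.0321 for Rps15, 0.0608 for Rpl7, 0.0335 for Rps29, 0.0336 for Rpl6, 0.0459 for Rpl26, 0.0709 for Rps15a and 0.0439 for Eef1a1. The cause was not tested. In the other 9 comparisons no member was called in any of the 441 fits. The 3 normal tissues limit the first comparison, and Rps4y2 lies near the filter limit, where the added constant compresses differences.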

Other observations

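Further marker lists describe the tissue around these genes. Their counts stand beside 18% of all genes higher and 16.3% lower in cancers. In cancers against normal tissue, 3 of 10 basal and myoepithelial markers were higher and 1 lower, 1 of 11 fibroblast and matrix markers was higher and 2 lower, and 2 of 3 tested B and plasma cell markers were lower. None of 10 T and NK cell markers or 7 skeletal muscle markers passed the test by limma after adjustment, with 3 and 1 of them at an unadjusted p under 0.05. The 1 tested gene of the ubiquitin fusions differed by −0.09 and did not pass.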
